A study of Mus musculus with 8 samples.

Results

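The cytochrome P450 family 4 (Cyp4) enzymes described here are fatty acid omega-hydroxylases of mouse liver. The 10 genes were chosen by name, with earlier results of these data known. They are Cyp4a10, Cyp4a14, Cyp4a31, Cyp4a32, Cyp4a12a, Cyp4a12b, Cyp4f13, Cyp4f14, Cyp4f15 and Cyp4v3. All 10 had a row in a count table of 40838 genes, and all 10 passed the filter on low counts. RNA from whole livers of C57BL/6 mice, an inbred laboratory strain, was sequenced in 8 libraries. In the Lpcat3 group, 4 libraries came from livers that carried Lpcat3 on an adeno-associated virus (AAV), expressed from the hepatocyte promoter TBG. In the eGFP group, 4 libraries came from livers that carried enhanced green fluorescent protein on the same kind of virus, as the control. Every mouse ate a diet that causes nonalcoholic steatohepatitis (NASH) for 7 weeks before the virus and 9 weeks after it, 16 weeks in all. The labels give neither sex nor age and do not say that each library came from its own animal. A p-value here therefore speaks to the spread of these libraries only, which may be technical. Numbers of livers given below are numbers of libraries.

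Omega-hydroxylases sit in the endoplasmic reticulum and add a hydroxyl group to the last carbon of a fatty acid, using electrons handed over by the reductase Por. Alcohol and aldehyde dehydrogenases then turn the product into a dicarboxylic acid, which is shortened in peroxisomes. The Cyp4a10 and Cyp4a14 genes are classic targets of the fatty acid receptor PPARA in rodent liver, Cyp4a12a is the main mouse enzyme that makes 20-HETE from arachidonic acid and is male-biased, and Cyp4f14 inactivates leukotriene B4. Lpcat3 places polyunsaturated fatty acids, arachidonic acid among them, into membrane phospholipids.

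Several of these genes are near-identical copies that lie together on chromosome 4, and how far a read can tell them apart decides how far their counts can be read separately. Transcripts came from the GENCODE M21 annotation (GRCm38), an older build than the GRCm39 named by the submitters. The coding sequences of Cyp4a12a and Cyp4a12b were 98.5% identical, with 23 substitutions, and their longest identical run was 342 bases. Of the windows of 101 bases (the read length) in the Cyp4a12a transcript, 35.6% also occurred in Cyp4a12b, so reads from these windows cannot be assigned to either copy. The stretch of coding bases 676 to 750 is where the pair differs most densely, and reads across it can be assigned. Capitals mark the 6 positions that differ.
Cyp4a12a: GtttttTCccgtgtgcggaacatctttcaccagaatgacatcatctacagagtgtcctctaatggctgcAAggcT
Cyp4a12b: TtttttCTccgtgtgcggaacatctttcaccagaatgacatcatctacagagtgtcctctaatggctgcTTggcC

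Cyp4a10, Cyp4a31 and Cyp4a32 form a second set of copies. The coding sequence of Cyp4a10 was 97.2% identical to that of Cyp4a32 and 96.6% identical to that of Cyp4a31. Windows of 101 bases found in another copy made up 12.5% of the Cyp4a10 transcript, 8.05% of Cyp4a31 and 19.7% of Cyp4a32. The Cyp4a32 transcript used holds coding sequence only, 1530 bases. Windows outside the coding part of Cyp4a10 and Cyp4a31 could not be matched to it, so these shares may be understated. Coding bases 187 to 261 are shown because they hold 11 of the 77 coding positions at which the 3 copies differ, marked in capitals.
Cyp4a10: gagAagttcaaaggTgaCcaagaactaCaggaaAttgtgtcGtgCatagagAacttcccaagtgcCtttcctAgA
Cyp4a31: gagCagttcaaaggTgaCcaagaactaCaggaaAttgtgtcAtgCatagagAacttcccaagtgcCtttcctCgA
Cyp4a32: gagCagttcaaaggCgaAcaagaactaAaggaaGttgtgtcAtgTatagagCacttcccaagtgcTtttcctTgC
The remaining members were further apart. Cyp4a14 shared 75.1% of coding bases with Cyp4a10, and no window of 101 bases in Cyp4a14, Cyp4f13, Cyp4f14 or Cyp4f15 occurred in another transcript. In Cyp4v3, 5.74% of windows also occurred in the predicted gene Gm45753. Values of the copies on chromosome 4 are therefore uncertain where given gene by gene, and sums over each set stand beside them.

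Library totals ran from 22433625 to 25651874 counts, and the 10 genes together took 0.119% to 0.247% of them. Each gene had 315 to 14139 counts in each library. Levels are in CPM, a gene's count relative to the total of its library, with totals scaled by the TMM method. Lpcat3 itself was at 274, 401, 465 and 311 CPM in the Lpcat3 livers and at 158, 148, 133 and 173 CPM in the eGFP livers. Its groups stood apart, with a log2 fold change of 1.25 (SE 0.17), although its adjusted p across all genes in edgeR's quasi-likelihood test with Benjamini-Hochberg adjustment was 0.164. Over all 17438 genes tested, 1 gene was called, Egfros, which is no Cyp4 gene and is named after its values were seen. The 4 Y-linked genes looked at were present in every library, and Xist was at 0.275 to 3.84 CPM. The sample titles carry a code, whose meaning is not given. The numbers 1344 and 1345 belong to Lpcat3 replicates 2, 3 and 4 and eGFP replicate 4, and the numbers 1290 and 1317 to Lpcat3 replicate 1 and eGFP replicates 1, 2 and 3. Because the codes divide the groups unevenly, values within each pair of codes stand beside the group differences.

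All 10 Cyp4 genes had a higher mean in the Lpcat3 livers than in the eGFP livers, and 0 of 10 passed edgeR's test, which called 0.00573% of all genes. The summed level of the 10 was 1545 to 2794 CPM in Lpcat3 livers and 1067 to 1918 CPM in eGFP livers, with means of 2242 ± 539.5 CPM in Lpcat3 livers and 1581 ± 363 CPM in eGFP livers (SD, n = 4 each, as for all means given as ±). The widest differences were those of Cyp4a12b and Cyp4a12a, at 2.51-fold and 2.11-fold, followed by Cyp4a10 at 1.44-fold. The other 7 genes lay between 1.11-fold and 1.26-fold. The groups overlapped for every one of the 10, whereas they stood apart in 4.16% of all genes.

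**Figure D1:**
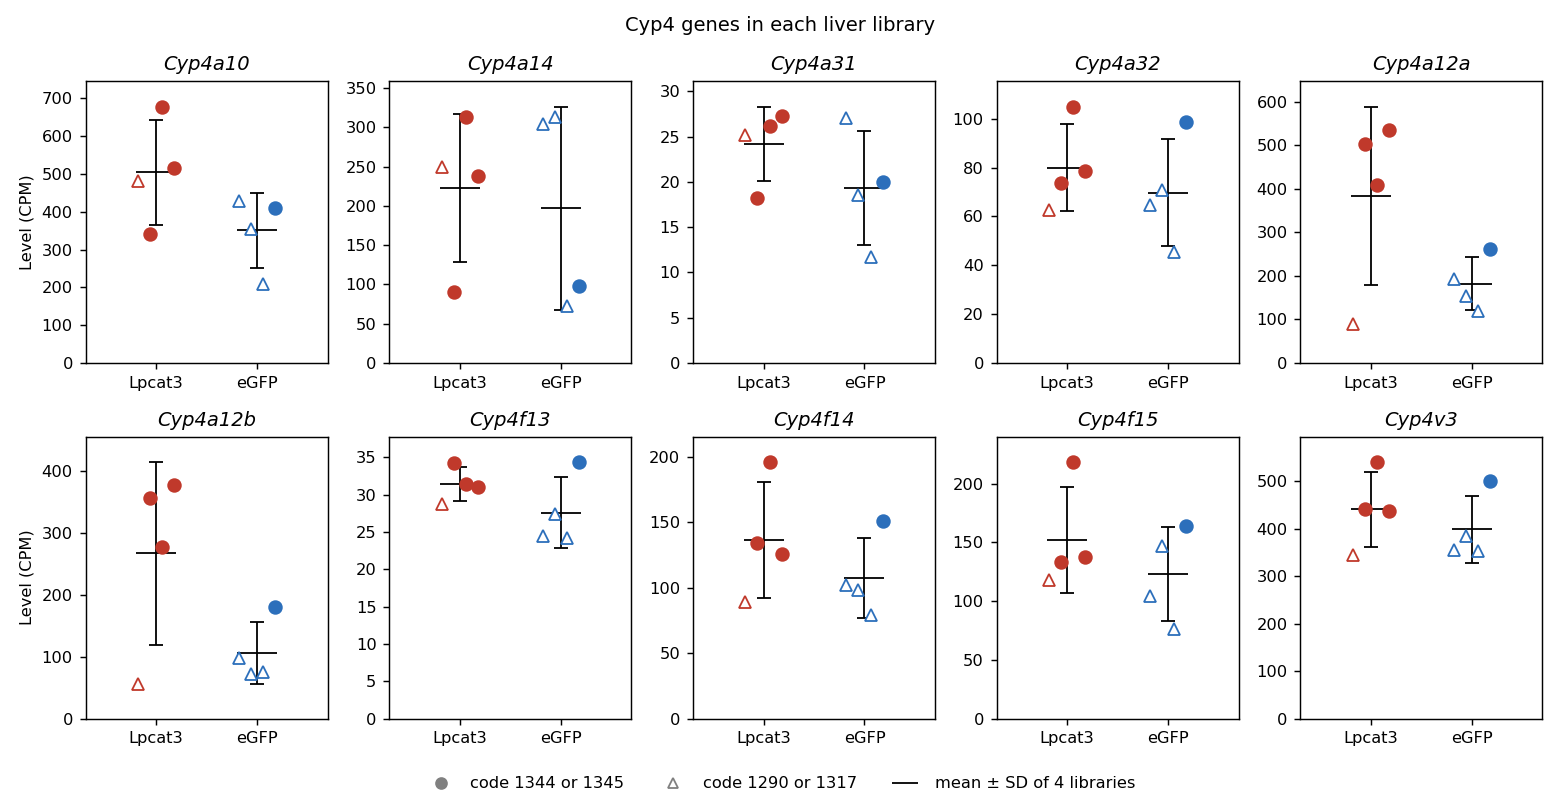
Level of each of the 10 Cyp4 genes in CPM (linear axis from 0) in the 4 Lpcat3 livers, in red, and the 4 eGFP livers, in blue, with the mean and SD of each group as bars. Filled circles are libraries coded 1344 or 1345 and open triangles those coded 1290 or 1317. Cyp4a12a in Lpcat3 livers lay at 409 to 535 CPM in the 3 circles and at 88.6 CPM in the triangle.

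Cyp4a12a (NCBI gene 277753) makes 20-HETE, a lipid mediator that acts on blood vessels. It was at 88.6, 503, 409 and 535 CPM in Lpcat3 livers and at 193, 153, 120.1 and 262 CPM in eGFP livers. Lpcat3 replicate 1 was the lowest of all 8 libraries, and the other 3 Lpcat3 libraries were the highest. The group means were 384 ± 204 CPM in Lpcat3 livers and 182 ± 61.0 CPM in eGFP livers. Its log2 fold change of 1.08 had an SE of 0.48 and an edgeR adjusted p of 0.590.

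Cyp4a12b (NCBI gene 13118) is the neighbouring copy. It was at 55.6, 357, 278 and 378.5 CPM in Lpcat3 livers and at 97.4, 72.6, 75.5 and 180.2 CPM in eGFP livers. The same Lpcat3 library was lowest, and eGFP replicate 4 was the highest of the eGFP libraries, as it was for Cyp4a12a. Lpcat3 livers averaged 267 ± 148 CPM and eGFP livers 106 ± 50.4 CPM, with a log2 fold change of 1.33, an SE of 0.53 and an edgeR adjusted p of 0.579. This was the 1 member of 10 with an unadjusted p under 0.05, a threshold that 8.48% of all genes met.

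Summed over the pair, Cyp4a12 stood at 651 ± 352 CPM in Lpcat3 livers and 288 ± 109.7 CPM in eGFP livers, and the log2 fold change of the summed counts was 1.18 (edgeR adjusted p = 0.583). Cyp4a12a made up 58.5% to 61.4% of the pair in Lpcat3 livers and 59.2% to 67.8% in eGFP livers. The split between the copies therefore moved far less than their sum, although shared windows limit how well it can be read. The share of the pair in the 10 genes ran from 9.34% in Lpcat3 replicate 1 to 40.5% in Lpcat3 replicate 2.

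Cyp4a10 (NCBI gene 13117) hydroxylates medium-chain and long-chain fatty acids and is among the genes most strongly induced by PPARA activators in mouse liver. It was at 481, 341, 678 and 517 CPM in Lpcat3 livers and at 429, 355, 208 and 410.2 CPM in eGFP livers. The 3 highest libraries were Lpcat3 libraries and the lowest was eGFP replicate 3, but Lpcat3 replicate 2 lay below 3 of the eGFP libraries. The mean level was 504 ± 138 CPM in Lpcat3 livers and 351 ± 100.1 CPM in eGFP livers. This gave a log2 fold change of 0.52 with an SE of 0.26 (edgeR adjusted p = 0.606), and values of 0.35 without Lpcat3 replicate 3 and 0.34 without eGFP replicate 3.

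Cyp4a31 and Cyp4a32 lie beside Cyp4a10 and are less well characterised. Cyp4a31 was at 25.1, 18.2, 26.2 and 27.3 CPM in Lpcat3 livers and at 27.0, 18.5, 11.7 and 20.0 CPM in eGFP livers. Cyp4a32 was at 62.7, 73.7, 105 and 78.4 CPM in Lpcat3 livers and at 64.6, 70.7, 45.3 and 98.5 CPM in eGFP livers. For both, eGFP replicate 3 was the lowest library, and the remaining libraries of the groups interleaved. The log2 fold changes were 0.33 (SE 0.23; edgeR adjusted p = 0.671) for Cyp4a31 and 0.20 (SE 0.23; adjusted p = 0.797) for Cyp4a32. Without eGFP replicate 3 they were 0.15 for Cyp4a31 and 0.03 for Cyp4a32, and without Lpcat3 replicate 3 Cyp4a32 had 0.04. With the counts of the 3 copies summed, the log2 fold change was 0.47 (edgeR adjusted p = 0.622).

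Cyp4a14 (NCBI gene 13119) is the other well-known PPARA target of the family, but its libraries ordered differently. It was at 250.2, 89.9, 313 and 238 CPM in Lpcat3 livers and at 304, 313, 73.2 and 97.6 CPM in eGFP livers. Each group held both high and low livers, with Lpcat3 replicate 3 and eGFP replicate 2 level at the top and eGFP replicate 3 lowest. Lpcat3 livers averaged 223 ± 94.5 CPM and eGFP livers 197 ± 129 CPM, and the log2 fold change was 0.18 with an SE of 0.52 (edgeR adjusted p = 0.920). Its sign was not stable, since it was -0.03 without Lpcat3 replicate 3, -0.10 without eGFP replicate 3 and -0.05 without eGFP replicate 4. As a share of Cyp4a14 and Cyp4a10 together, Cyp4a14 took 20.9% to 34.2% in Lpcat3 livers and 19.2% to 46.8% in eGFP livers.

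The Cyp4f genes lie on chromosome 17, and their best known substrates are leukotrienes and long-chain fatty acids. Cyp4f14 (NCBI gene 64385) was at 89.0, 134, 196 and 125 CPM in Lpcat3 livers and at 102, 98.1, 79.1 and 151 CPM in eGFP livers. Cyp4f15 (NCBI gene 106648) was at 118, 134, 218 and 137 CPM in Lpcat3 livers and at 105, 147, 76.1 and 164 CPM in eGFP livers. Lpcat3 replicate 3 was the highest and eGFP replicate 3 the lowest library for each of these genes, and the other libraries overlapped. The log2 fold changes were 0.34 (SE 0.25; edgeR adjusted p = 0.682) for Cyp4f14 and 0.31 (SE 0.26; adjusted p = 0.718) for Cyp4f15. Without Lpcat3 replicate 3 they were 0.11 and 0.08, and without eGFP replicate 3 they were 0.21 and 0.13.

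Cyp4f13 (NCBI gene 170716) varied least. It was at 28.7, 34.3, 31.5 and 31.1 CPM in Lpcat3 livers and at 24.4, 27.4, 24.1 and 34.3 CPM in eGFP livers. The 3 lowest libraries were all from the eGFP group, while eGFP replicate 4 was level with Lpcat3 replicate 2 at the top. The averages of 31.4 ± 2.29 CPM in Lpcat3 livers and 27.6 ± 4.73 CPM in eGFP livers gave a log2 fold change of 0.19 with an SE of 0.12 (edgeR adjusted p = 0.652).

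Cyp4v3 (NCBI gene 102294) is the mouse counterpart of human CYP4V2, an omega-hydroxylase that is mutated in Bietti crystalline dystrophy of the retina. It was at 345, 441, 539.7 and 437 CPM in Lpcat3 livers and at 354, 384, 354 and 500.4 CPM in eGFP livers. Lpcat3 replicate 1 was the lowest library and eGFP replicate 4 the second highest, so the groups interleaved. The averages were 440.5 ± 79.5 CPM in Lpcat3 livers and 398 ± 69.7 CPM in eGFP livers, with a log2 fold change of 0.15 and an SE of 0.16 (edgeR adjusted p = 0.776). Without Lpcat3 replicate 3 it was 0.03, and without eGFP replicate 3 it was 0.09.

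Divided by transcript length, the levels covered a wide range. Per kilobase of the longest coding transcript, Cyp4a10 was highest at 239 ± 65.6 CPM in Lpcat3 livers and 166 ± 47.5 CPM in eGFP livers. Cyp4v3 stood at 116 ± 20.9 CPM per kilobase in Lpcat3 livers and 105 ± 18.3 in eGFP livers. Cyp4a14 was its neighbour in eGFP livers, at 89.3 ± 37.8 CPM per kilobase in Lpcat3 livers and 78.9 ± 51.8 in eGFP livers, and their spreads overlapped. Cyp4a12a came between Cyp4a10 and Cyp4v3 in Lpcat3 livers, at 159 ± 84.3 CPM per kilobase, but below Cyp4a14 in eGFP livers, at 75.1 ± 25.2, within the spread of its neighbours. Cyp4a12b was at 112 ± 61.6 CPM per kilobase in Lpcat3 livers and 44.4 ± 21.0 in eGFP livers. Cyp4f15, Cyp4f14 and Cyp4a32 followed at 70.1, 61.3 and 52.2 CPM per kilobase in Lpcat3 livers and 56.7, 48.5 and 45.6 in eGFP livers, with overlapping spreads. The lowest were Cyp4f13, at 17.9 in Lpcat3 livers and 15.7 in eGFP livers, and Cyp4a31, at 9.64 in Lpcat3 livers and 7.70 in eGFP livers. The annotated Cyp4a32 transcript holds no untranslated regions, so its length is understated and its value per kilobase overstated. The order also depends on the length used. Per kilobase of coding sequence alone, Cyp4v3 was at 279 CPM in Lpcat3 livers and 252 CPM in eGFP livers. On that scale Cyp4a10 was at 330 and 229 CPM, and Cyp4a12a at 251.5 and 119 CPM, in the same order of groups.

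The genes also differed in how much they varied between livers. The highest library was 6.80 times the lowest for Cyp4a12b, 6.04 times for Cyp4a12a, 4.28 times for Cyp4a14 and 3.26 times for Cyp4a10. For Cyp4v3 and Cyp4f13 the ratio was 1.56 and 1.42. Of the 4 genes with the widest range, 3 also had the largest group differences, and the fourth, Cyp4a14, did not. The range spans both groups, so a group difference itself widens it. Within Lpcat3 and eGFP livers, the SD was 55.2% and 47.3% of the mean for Cyp4a12b and 53.2% and 33.5% for Cyp4a12a. It was 42.4% and 65.6% for Cyp4a14 and 27.4% and 28.5% for Cyp4a10.

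Over the whole list, the median log2 fold change was 0.32, against -0.01 over all genes tested, and 10 of 10 members were above 0, against 48.5% of all genes. The edgeR adjusted p-values of the members ran from 0.579 to 0.920. All members were measured in the same 8 libraries, so their common sign is not 10 separate results. The list was also chosen with earlier results of these data known, so these contrasts are descriptions only. Of the 4 other Cyp4 genes tested, 3 were below 0, with a median of -0.48. The median over the members stayed above 0 when any 1 library was left out, at 0.14 to 0.44. It was 0.05 without both libraries numbered 3, and 0.05 in a fit that also held the code division described next.

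**Figure D2:**
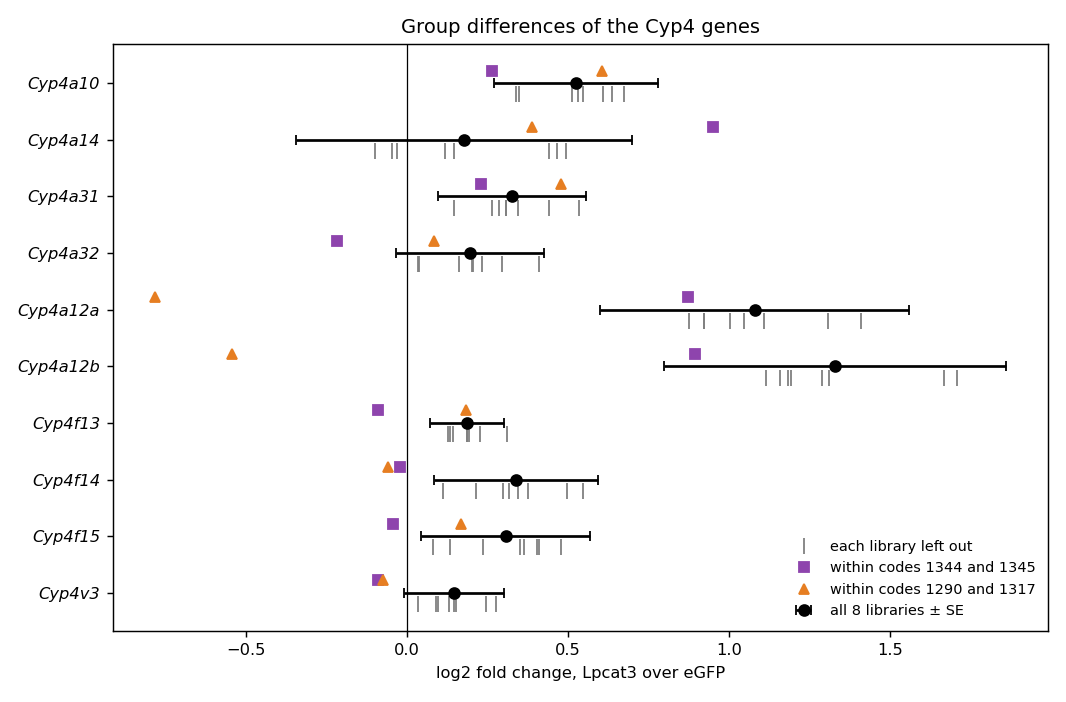
Log2 fold change of each Cyp4 gene, Lpcat3 over eGFP, with its SE (black, all 8 libraries), the values with each library left out (grey ticks) and the log2 differences within codes 1344 and 1345 (purple squares) and within codes 1290 and 1317 (orange triangles). All 10 black points lie above 0, and within codes 1290 and 1317 Cyp4a12a and Cyp4a12b lie at -0.78 and -0.54.

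For 6 of the 10 genes the codes in the titles separated the livers, while the virus groups overlapped. In Cyp4a12a, Cyp4a12b, Cyp4a32, Cyp4f13, Cyp4f14 and Cyp4v3 every library coded 1344 or 1345 was above every library coded 1290 or 1317, a pattern found in 6.42% of all genes. This division of the codes was chosen with earlier results of these data known. Cyp4a12b averaged 298 CPM in libraries coded 1344 or 1345 and 75.3 CPM in those coded 1290 or 1317, a ratio of 3.96. For Cyp4a12a the means in the same order of codes were 427 and 139 CPM, a ratio of 3.08, and for Cyp4f14 they were 152 and 92.1 CPM, a ratio of 1.65. Cyp4a32, Cyp4v3 and Cyp4f13 had ratios of 1.46, 1.33 and 1.25.

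With code division and group as terms in 1 fit, the code coefficient on the log2 scale was 1.86 (SE 0.33) for Cyp4a12b and 1.60 (SE 0.39) for Cyp4a12a, with edgeR adjusted p-values of 0.0916 and 0.211. No member passed (0 of 10), where 0.0745% of all genes, 13 in number, did. In the same fit the group coefficient of Cyp4a12a was 0.04 and that of Cyp4a12b 0.18, against 1.08 and 1.33 with group alone. That of Cyp4a10 was 0.43, against 0.52. Cyp4a10, Cyp4a14, Cyp4a31 and Cyp4f15 were not separated by code.

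Within codes 1290 and 1317, where 1 Lpcat3 library stands against 3 eGFP libraries, the log2 difference was -0.78 for Cyp4a12a and -0.54 for Cyp4a12b. Within codes 1344 and 1345, where 3 Lpcat3 libraries stand against 1, it was 0.87 and 0.89. A test of that difference between code divisions, added after these values were seen, had an unadjusted p of 0.00257 for Cyp4a12a and 0.00215 for Cyp4a12b, and an edgeR adjusted p of 0.9997 for each, and 0 genes in all passed. It assumes that the single Lpcat3 library of codes 1290 and 1317 and the single eGFP library of codes 1344 and 1345 vary like the others. The group difference of Cyp4a10 had the same sign in both, at 0.60 within 1290 and 1317 and 0.26 within 1344 and 1345, as did Cyp4a31 at 0.48 and 0.23 and Cyp4a14 at 0.39 and 0.95. Those of Cyp4f14 and Cyp4v3 were below 0 in both, at -0.06 and -0.02 for Cyp4f14 and -0.08 and -0.09 for Cyp4v3. Each within-code difference sets 1 library against 3 and is given as a value without its own test. What the codes stand for was not tested.

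Pairs of Cyp4 genes that varied together between livers fell into 3 sets. Of the 45 pairs of members, 41 had a positive Pearson r of log2 CPM over the 8 libraries, and 8 passed Benjamini-Hochberg adjustment over the 45 exact permutation p-values. Spearman's rho passed for 5 of them. How often pairs of other genes reach such r in these libraries was not tested, so the counts are no sign of relations particular to the family. With library totals in place of TMM 5 pairs passed on r, and Cyp4a32 with Cyp4v3, Cyp4f14 with Cyp4f15 and Cyp4f15 with Cyp4v3 did not. Without both libraries numbered 3 no pair passed (0 of 45). Over those 6 libraries even the smallest possible exact permutation p is too large for a single pair to pass alone. That count therefore does not show that the relations were lost, and the 8 pairs kept r between 0.629 and 0.984. Cyp4a12a and Cyp4a12b had the closest relation (r = 0.986, exact permutation p = 7.44e-05, adjusted p = 0.00335; rho = 0.976, exact p = 0.000397), and r was 0.982 without the 2 libraries farthest from the median. The part of reads shared between the copies in this r was not tested. For deviations from the means of the code divisions r was 0.951.

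Cyp4a10 and Cyp4a31 formed the second set (r = 0.921, exact permutation p = 0.00154, adjusted p = 0.0115; rho = 0.881, exact p = 0.00724), with r = 0.894 without the 2 farthest libraries and 0.931 for deviations from the code means. The rank correlation of this pair did not pass the adjustment (exact permutation, adjusted p = 0.0543). The third set joined Cyp4a32, Cyp4f14, Cyp4f15 and Cyp4v3, although they lie on 3 chromosomes. In it Cyp4f14 and Cyp4v3 were closest (r = 0.963, exact permutation p = 0.000397, adjusted p = 0.00707; rho = 0.952, exact p = 0.00114), with r = 0.964 without the 2 farthest libraries and 0.839 for deviations from the code means. The other 5 pairs of the set had r between 0.844 and 0.956, and between 0.731 and 0.931 for deviations from the code means. Of these, Cyp4f14 with Cyp4f15 dropped from r = 0.878 to 0.629 without the 2 farthest libraries, which were the libraries numbered 3 of each group.

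Cyp4a32 followed this set more closely than it followed the near-identical Cyp4a10 (r = 0.766, exact permutation p = 0.0320, adjusted p = 0.0847; rho = 0.524, exact p = 0.197), and that relation rested on the 2 farthest libraries, since r was -0.09 without them. The difference between these correlations was not tested. Cyp4a14 had r = 0.707 with Cyp4a10 (exact permutation p = 0.0357, adjusted p = 0.0881; rho = 0.548, exact p = 0.171) and 0.394 without the 2 farthest libraries, but 0.916 for deviations from the code means. It had r = -0.04 with Cyp4a12a (exact permutation p = 0.924, adjusted p = 0.924; rho = -0.10, exact p = 0.840). Both groups and both code divisions enter each of these values.

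**Figure D3:**
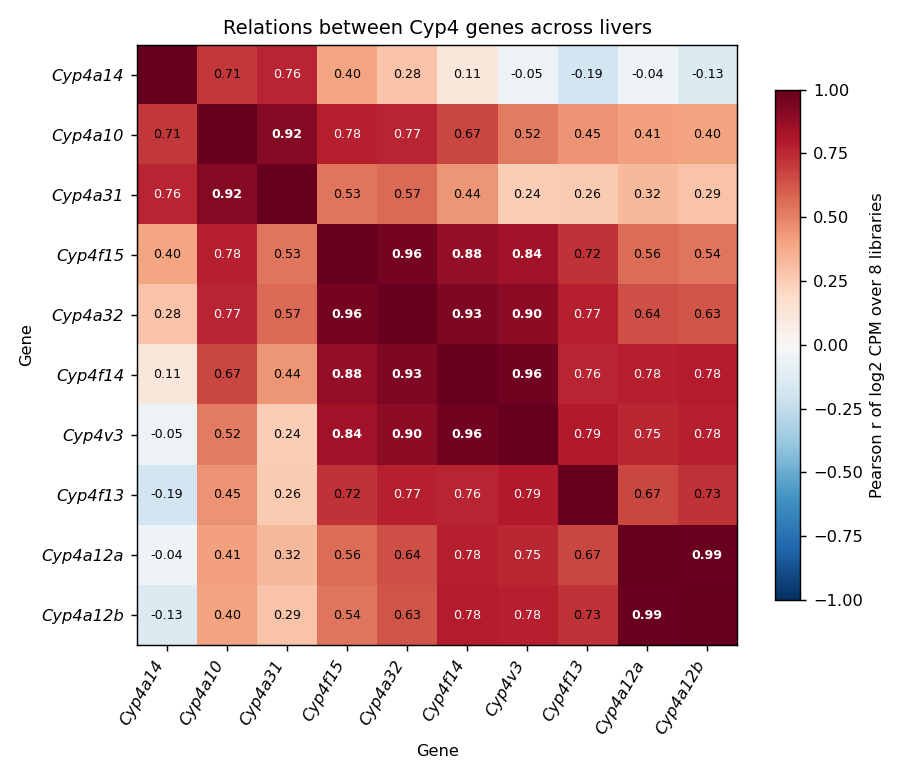
Pearson r of log2 CPM over the 8 libraries for each pair of the 10 Cyp4 genes (colour scale from -1 to 1). Bold values passed Benjamini-Hochberg adjustment of exact permutation p-values over 45 pairs, as 8 pairs did. Cyp4a12a with Cyp4a12b, Cyp4a10 with Cyp4a31, and Cyp4f15, Cyp4a32, Cyp4f14 and Cyp4v3 hold the bold values.

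Outside the family, the genes of the whole table with the highest r over the same 8 libraries were looked up among 9864 genes with enough counts, as a description with no test. For Cyp4a12a they were Tmed10-ps at 0.966, Nat8f5 at 0.957, Cnih1 at 0.940, Csrp2 at 0.940 and Unc50 at 0.939. Nat8f5, an acetyltransferase family gene, was at 2.67, 13.9, 12.8 and 12.3 CPM in Lpcat3 livers and at 5.03, 3.31, 4.79 and 8.51 CPM in eGFP livers. Like Cyp4a12a, it was lowest in Lpcat3 replicate 1 and highest in the other Lpcat3 libraries. For Cyp4f14 the nearest genes were Daam1 at 0.980, Lypla1 at 0.979, the epoxygenase Cyp2c23 at 0.977, Dek at 0.977 and the glucuronosyltransferase Ugt2b1 at 0.975. For Cyp4a10 they were Rbm10 at 0.971, Magix at 0.969, Ndufb2 at 0.958, Brms1 at 0.955 and Tsen34 at 0.953. Each of these was closer to Cyp4a10 than the member Cyp4a31 was, at 0.921. Likewise, each gene listed for Cyp4f14 was closer to it than Cyp4v3 was, at 0.963. None of those listed for Cyp4a12a reached the 0.986 of Cyp4a12b.

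The rest of the family was low or undetected in these livers. Of 10 other Cyp4 genes, 4 passed the filter on low counts, and Cyp4a29, picked out once its values had been seen, was at 0 in every library. In contrast to the 10 members, 3 of these 4 had negative log2 fold changes, none passing in edgeR. The fourth, Cyp4f17, had 0.12 and was separated by code in the direction of Cyp4a12a. Cyp4b1 and Cyp4f18 were separated by code in the opposite direction. For codes 1344 and 1345 against 1290 and 1317, Cyp4b1 averaged 12.7 and 16.3 CPM and Cyp4f18 1.36 and 2.79 CPM. Cyp4f18, the leukotriene B4 hydroxylase of mouse neutrophils, averaged 1.54 ± 0.70 CPM in Lpcat3 livers and 2.61 ± 0.73 CPM in eGFP livers, a log2 fold change of -0.76 (edgeR adjusted p = 0.589). Cyp4f16 averaged 2.62 ± 0.47 CPM in Lpcat3 livers and 4.08 ± 1.31 CPM in eGFP livers, a log2 fold change of -0.64 (adjusted p = 0.578). Cyp4b1, known mainly from lung, averaged 12.8 ± 2.07 CPM in Lpcat3 livers and 16.1 ± 1.37 CPM in eGFP livers, a log2 fold change of -0.33 (adjusted p = 0.569). The summed level of neutrophil markers was 5.47 to 9.68 CPM in Lpcat3 livers and 8.33 to 24.4 CPM in eGFP livers, with all 5 tested markers at negative log2 fold changes. Its part in the Cyp4f18 values was not tested.

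Genes that work with the omega-hydroxylases were taken from lists, and no list gene passed in edgeR (0 called in each). Of 7 electron donors, 6 had a log2 fold change above 0 and 1 below, with a median of 0.05. The reductase Por was at 269.5, 485, 561 and 466 CPM in Lpcat3 livers and at 199, 265, 149 and 475 CPM in eGFP livers (log2 fold change 0.71, SE 0.35; edgeR adjusted p = 0.611). It divided by code as Cyp4a12a did, with 497 CPM in libraries coded 1344 or 1345 and 221 CPM in those coded 1290 or 1317. Cyb5a, cytochrome b5, averaged 866 ± 92.1 CPM in Lpcat3 livers and 789 ± 103 CPM in eGFP livers. It divided by code as well, with means of 907 CPM for codes 1344 and 1345 and 748 CPM for codes 1290 and 1317.

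Of 10 alcohol and aldehyde dehydrogenases, 7 were above 0 and 3 below, with a median log2 fold change of 0.09. Adh4 averaged 172 ± 38.0 CPM in Lpcat3 livers and 142 ± 14.2 CPM in eGFP livers, a log2 fold change of 0.28 (edgeR adjusted p = 0.630). Of 21 genes of peroxisomal oxidation, 17 were above 0 and 4 below, with a median of 0.10. The peroxisomal isomerase Eci2 was at 211, 259, 248 and 215 CPM in Lpcat3 livers and at 179.9, 179.8, 154 and 209 CPM in eGFP livers, with no overlap of the groups (log2 fold change 0.37, SE 0.11; edgeR adjusted p = 0.564). Abcd3, a peroxisomal fatty acid transporter, averaged 586 ± 67.2 CPM in Lpcat3 livers and 489 ± 81.3 CPM in eGFP livers. Its libraries also divided by code without overlap, with means of 615 CPM for codes 1344 and 1345 and 459 CPM for codes 1290 and 1317.

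Ppara, the receptor itself, averaged 744 ± 73.3 CPM in Lpcat3 livers and 654 ± 135 CPM in eGFP livers, a log2 fold change of 0.19 (edgeR adjusted p = 0.697). Every library coded 1344 or 1345 was above every library coded 1290 or 1317 for this gene. Of 17 genes for PPARA, its partners and co-regulators, 12 were above 0 and 5 below, with a median of 0.07. The coactivator Ppargc1a averaged 25.4 ± 9.68 CPM in Lpcat3 livers and 17.7 ± 4.65 CPM in eGFP livers, a log2 fold change of 0.52 (edgeR adjusted p = 0.625). Of 28 other PPARA target genes, 20 were above 0 and 8 below, with a median of 0.09, against 0.52 for Cyp4a10 and 0.18 for Cyp4a14. Slc25a20, the mitochondrial carnitine carrier, averaged 80.0 ± 1.66 CPM in Lpcat3 livers and 68.8 ± 4.23 CPM in eGFP livers, with no overlap (log2 fold change 0.22; edgeR adjusted p = 0.564). Acot1, a cytosolic thioesterase, averaged 36.5 ± 10.7 CPM in Lpcat3 livers and 22.4 ± 8.37 CPM in eGFP livers, a log2 fold change of 0.71 (edgeR adjusted p = 0.579). Its libraries also divided by code without overlap, with means of 39.0 CPM for codes 1344 and 1345 and 19.9 CPM for codes 1290 and 1317. The PPARA target Vnn1 was at 157 ± 31.5 CPM in Lpcat3 livers and 157 ± 10.1 CPM in eGFP livers. Pdk4 was at 18.8 ± 5.80 CPM in Lpcat3 livers and 27.4 ± 12.4 CPM in eGFP livers. Ppara, Vnn1 and Pdk4 were named after their values were seen.

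Arachidonic acid is also a substrate for epoxygenases, and 12 of 15 genes of eicosanoid epoxidation and hydrolysis were above 0, with a median of 0.18. Cyp2c54 averaged 166 ± 122 CPM in Lpcat3 livers and 94.9 ± 101 CPM in eGFP livers, and all its libraries coded 1344 or 1345 were above the others, as in 6 of these 15 genes and in 6.42% of all genes. The soluble epoxide hydrolase Ephx2 averaged 691 ± 105 CPM in Lpcat3 livers and 568 ± 90.7 CPM in eGFP livers (log2 fold change 0.28; edgeR adjusted p = 0.616). It was among the genes divided by code, with means of 724 CPM for codes 1344 and 1345 and 536 CPM for codes 1290 and 1317. Of 9 genes for leukotriene B4 synthesis and receptors tested, 5 were above 0 and 4 below. The phospholipase Pla2g4a, which frees arachidonic acid, was at 4.17, 3.36, 3.26 and 2.47 CPM in Lpcat3 livers and at 7.39, 4.33, 6.57 and 4.79 CPM in eGFP livers, with no overlap (log2 fold change -0.80, SE 0.22; edgeR adjusted p = 0.564).

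Cyp4a12a is male-biased in mice, and growth hormone sets much of the sex bias of liver genes. Of 22 growth hormone and sex-biased genes tested, 16 were above 0 and 6 below, with a median log2 fold change of 0.27. Onecut1, a hepatocyte transcription factor, was at 43.2, 84.3, 55.3 and 55.2 CPM in Lpcat3 livers and at 18.5, 14.8, 11.2 and 16.7 CPM in eGFP livers (log2 fold change 1.96, SE 0.22; edgeR adjusted p = 0.0752). Its groups stood well apart, and several other settings called it. Socs2 and Cish, feedback inhibitors of growth hormone signalling, had log2 fold changes of 0.97 and 1.54 (edgeR adjusted p = 0.564 each) and were called by DESeq2 alone, at 0.00687 and 0.00232. Bcl6, a repressor of female-biased genes in male mouse liver, had a log2 fold change of -0.68 (edgeR adjusted p = 0.564).

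Of the 22 genes, 7 were separated by code in the direction of Cyp4a12a, a pattern held by 6.42% of all genes. They were Slco1a1, Cyp2d9, Hsd3b5, Cyp7b1, Igf1, Trim24 and the female-biased Cyp2a4, and the genes of this paragraph were named after their values were seen. The pattern was not particular to this list. It was held by 8 of 21 genes of peroxisomal oxidation, 4 of 10 dehydrogenases, 3 of 7 electron donors and 5 of 17 genes for PPARA and its partners. Among 18 nuclear receptors and other regulators 5 held it. Of 28 other PPARA target genes 3 held it and 3 held the opposite. The male-biased Elovl3 overlapped between codes, at 30.2 to 57.6 CPM in libraries coded 1344 or 1345 and 27.0 to 46.1 CPM in those coded 1290 or 1317. The transporter Slco1a1 was at 42.7, 270.4, 318 and 161 CPM in Lpcat3 livers and at 53.2, 37.8, 47.1 and 178 CPM in eGFP livers. Cyp2d9 was at 237, 715, 666 and 427 CPM in Lpcat3 livers and at 225, 235, 248 and 559 CPM in eGFP livers. Hsd3b5 was at 0.17, 25.0, 28.1 and 3.10 CPM in Lpcat3 livers and at 0.31, 0.16, 0.11 and 2.77 CPM in eGFP livers. In all 3, eGFP replicate 4 was well above the other eGFP libraries and Lpcat3 replicate 1 well below the other Lpcat3 libraries. None passed for group, with edgeR adjusted p-values of 0.607 for Slco1a1, 0.641 for Cyp2d9 and 0.564 for Hsd3b5.

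**Figure D4:**
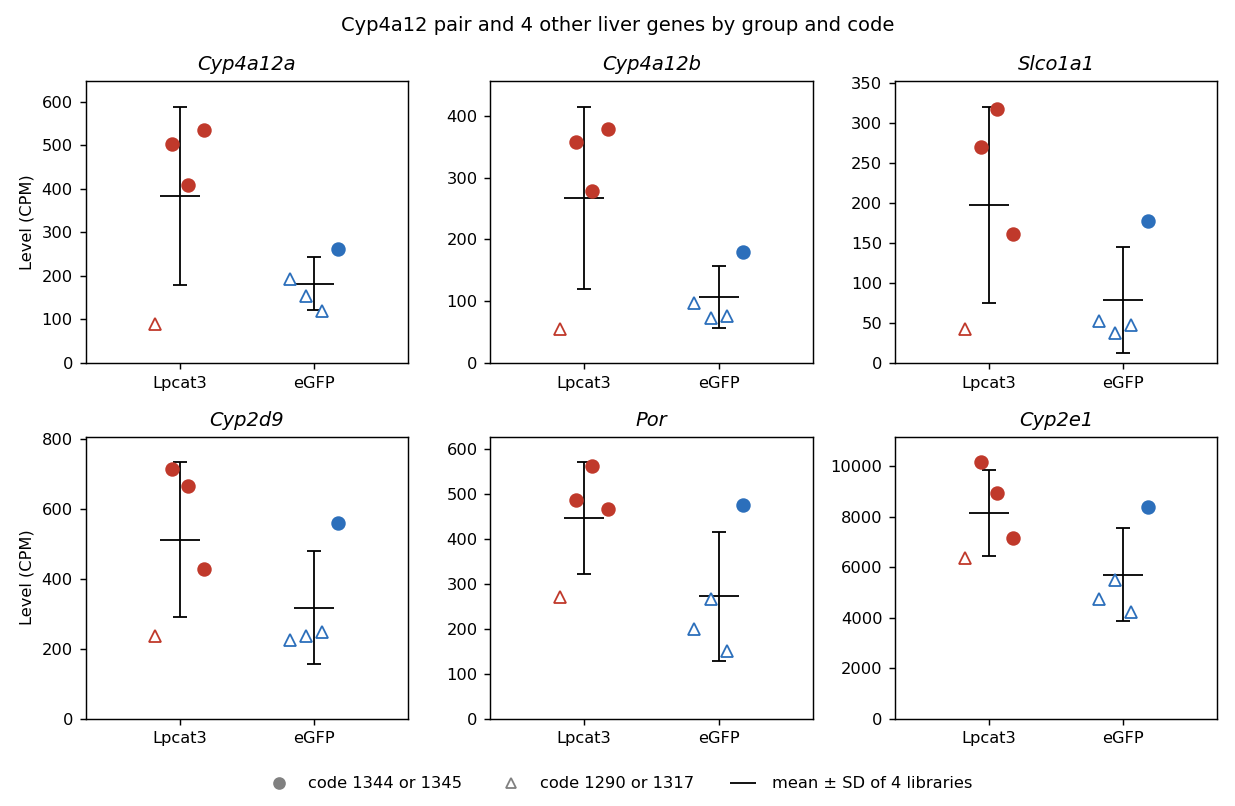
Level in CPM (linear axis from 0) of Cyp4a12a, Cyp4a12b, the male-biased genes Slco1a1 and Cyp2d9, the reductase Por and the pericentral enzyme Cyp2e1 in the 4 Lpcat3 livers, in red, and the 4 eGFP livers, in blue, with mean and SD. Filled circles (codes 1344 and 1345) lie above open triangles (codes 1290 and 1317) in every panel, also for the eGFP library with a circle, at 262 CPM of Cyp4a12a and 475 CPM of Por.

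Levels of cell type markers stand beside these values, and in whole liver fewer cells of a type and less RNA per cell cannot be told apart. All 10 hepatocyte markers were present, with a summed level of 88065 to 122950 CPM in Lpcat3 livers and 75847 to 109190 CPM in eGFP livers. Of 7 kidney and gut markers, 1 passed the filter on low counts, Lrp2 at 0.90 to 2.74 CPM, and Fabp6, Umod and Kap, named after their values were seen, were at 0. The summed level of the 7 was 1.25 to 3.14 CPM in Lpcat3 livers and 1.56 to 3.10 CPM in eGFP livers. Of 10 markers of pericentral hepatocytes, the zone where Cyp2e1 is made, 6 were separated by code like Cyp4a12a, against 6.42% of all genes. The summed level of the 10 was 10657 to 14328 CPM in libraries coded 1344 or 1345 and 6283 to 9371 CPM in those coded 1290 or 1317. Most of that sum was Cyp2e1, which averaged 8647 and 5198 CPM in the same order of codes. The pericentral markers Glul, Axin2 and Lgr5, named after their values were seen, overlapped between codes. Of 10 periportal markers, 0 were higher by code without overlap.

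By group, 11 of 12 macrophage markers had negative log2 fold changes (median -0.53), and their summed level was 319 to 410.1 CPM in Lpcat3 livers and 432 to 678 CPM in eGFP livers. For 9 endothelial markers the summed level was 432 to 531 CPM in Lpcat3 livers and 515 to 575 CPM in eGFP livers, with all 9 below 0. Of 12 stellate cell markers 9 were below 0, as were 8 of 9 lymphocyte markers, and 7 of 8 cholangiocyte markers were above 0 (median 0.48). No marker passed in edgeR (0 called in each list). The part of cell composition and liver zone in the Cyp4 values was not tested.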

How the data were processed

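Raw counts, read as whole numbers of reads for each of 40838 NCBI gene numbers, were deposited by the authors in 1 table with a column for each of the 8 libraries, with no normalization. Per the labels' protocols, ribosomal RNA was depleted from TRIzol-extracted RNA, stranded libraries were prepared and single reads of 101 cycles were sequenced. Per the submitters' processing notes, bcl2fastq 2.20, DESeq2 and the build GRCm39 were used. Which aligner, counting program and strand setting were used is not given in the sources used here, so reads of near-identical copies or overlapping genes could be split between rows.

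Symbols came from a RefSeq table of GRCm38, with matches for 39397 rows that carry 99.5% of all counts. Transcripts and coding sequences came from GENCODE M21 (GRCm38). Genes were filtered with filterByExpr (minimum count 10), leaving 17438. The group difference was fitted in R 4.3.3 with edgeR 4.0.16 (quasi-likelihood test, TMM scaling, robust estimation, no covariate) and limma 3.58.1. Two-sided p-values received Benjamini-Hochberg adjustment over all genes, and 0.05 was the threshold. The biological coefficient of variation was 16.9%. CPM used TMM-scaled totals, and log2 CPM a prior count of 2. Correlations used exact permutation over 40320 orders, whose smallest p is 4.96e-05 for Spearman's rho and can be smaller for Pearson r. The fitting steps were tested on simulated data. Alternatives were other scalings and filters, DESeq2 1.42.0, limma-voom, each library left out, both libraries numbered 3 left out, the replicate number as a block, the code division as a term, and copies summed. The code coefficients, the interaction of code and group, and the correlations of deviations from code means were added after seeing the data.

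The members and lists were chosen with earlier results of these data known. The text names all members, Lpcat3, selected genes among up to 4 of each list with the smallest unadjusted p at a mean of at least 1 CPM, and for Cyp4a10, Cyp4a12a and Cyp4f14 the 5 genes with the highest r at a mean of at least 5 CPM, without predicted or clone symbols. Other genes are marked in the text as named once their values had been seen.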

Additional observations from a re-analysis of the deposited data

How the results depend on the processing

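No Cyp4 member was called in any setting that was run, and the median over the members stayed above 0, at 0.05 to 0.44. Over all genes, edgeR called 1 higher and 0 lower, 3 higher with library totals, 2 without robust estimation, and 0 with no filter, without both libraries numbered 3, with the replicate block and with the code term. Leaving out each library gave 0 to 7. DESeq2 called 28 higher and 23 lower. Among list genes 0 were called higher, 1 with library totals (Onecut1, adjusted p = 0.0234), 1 without robust estimation (Onecut1, 0.0484), 3 with DESeq2, and 0 to 1 with each library left out (Onecut1, without Lpcat3 replicate 1 or 2). Lpcat3 was called with library totals (log2 fold change 1.12, adjusted p = 0.0234), with DESeq2 (1.25, 9.77e-09) and without Lpcat3 replicate 1 (1.36, 0.0477). Library totals shifted the median of all genes to -0.13 and that of the members to 0.20.

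Directions turned as follows, on the log2 scale. Cyp4a14 was at -0.13 with limma-voom and ran from -0.10 to 0.49 with each library left out. Without both libraries numbered 3, Cyp4a14 was at -0.31, Cyp4a32 at -0.12, Cyp4f14 at -0.0115, Cyp4f15 at -0.0929 and Cyp4v3 at -0.0197. With the code term, Cyp4a32 was at -0.0724, Cyp4f14 at -0.0292 and Cyp4v3 at -0.0804. Within codes 1290 and 1317, Cyp4a12a was at -0.78, Cyp4a12b at -0.54, Cyp4f14 at -0.0576 and Cyp4v3 at -0.0761. Within codes 1344 and 1345, Cyp4a32 was at -0.22, Cyp4f13 at -0.0903, Cyp4f14 at -0.0207, Cyp4f15 at -0.0448 and Cyp4v3 at -0.0905. The cause was not tested. Correlated pairs numbered 8, 5 with library totals, and 0 without both libraries numbered 3. There the smallest exact permutation adjusted p was 0.0625 over 6 libraries, too few for a single pair to pass alone.

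Same-numbered libraries correlated at 0.28, -0.07, -0.40 and -0.12 in their deviations from the group means. Differently numbered libraries ran from -0.45 to 0.47. With 4 libraries in each group, these values cannot tell whether the numbers pair the samples, which the labels do not state. With the replicate block the log2 fold changes of Cyp4a12a and Cyp4a12b were 0.91 and 1.16. Each group had 4 libraries, and each member had 315 or more counts in each library.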

Other observations

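Of 18 liver nuclear receptors, xenobiotic sensors and hepatocyte transcription factors, 15 had a log2 fold change above 0 and 3 below, with a median of 0.12, and 0 passed in edgeR. Foxa1, a pioneer factor of liver genes, averaged 63.2 ± 3.64 CPM in Lpcat3 livers and 51.2 ± 4.68 CPM in eGFP livers, with no overlap of the groups (log2 fold change 0.30, SE 0.08; edgeR adjusted p = 0.564). Nr0b2, the bile acid responsive repressor SHP, averaged 7.35 ± 1.99 CPM in Lpcat3 livers and 13.3 ± 5.64 CPM in eGFP livers (log2 fold change -0.85, SE 0.32; edgeR adjusted p = 0.573). The clock repressor Nr1d1 averaged 63.5 ± 17.1 CPM in Lpcat3 livers and 91.2 ± 11.5 CPM in eGFP livers, and all its libraries coded 1344 or 1345 were below those coded 1290 or 1317.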
